A study of Drosophila melanogaster with 6 samples.

Results

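The genes described here are 10 genes of the ecdysone pathway, EcR, usp, Eip74EF, Eip75B, ftz-f1, Hr39, Hr38, Hr78, DopEcR and ImpL2, in adult heads of Drosophila melanogaster. They were chosen by name with results of the same comparison already known, so the differences between genotypes given for them are a description and carry no test. The array annotation assigned 9 probe sets (groups of short oligonucleotides that report on a single transcript) to 8 of these genes, out of 10844 genes with a symbol of their own on the array. A further probe set is not named by that annotation, and is called Eip74EF here because the list of LARK-associated RNAs that accompanies the study gives it that name. In the part of that list where it stands, the annotation names the listed gene for 51 of 52 probe sets. The list also places a probe set beside Eip75B, but the annotation assigns it to pum, and among the entries listed in the same way the annotation names the listed gene for only 5 of 63. No value is therefore given for Eip75B, and the account covers 10 probe sets of 9 genes.

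Ecdysone is the steroid hormone of insects. In the cell it binds a pair of nuclear receptors, EcR and its partner usp, which switch on a first tier of regulator genes, and these in turn control later genes of molting, metamorphosis and ecdysis. In adult flies the hormone persists at lower levels, and the pathway has been linked to memory, sleep, reproduction and stress.

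The arrays compared 2 genotypes. In LARK overexpression flies, the pan-neuronal driver elav-gal4 turned on a transgene, UAS-lark. LARK is an RNA-binding protein of the circadian output pathway. These flies were sons and daughters of elav-gal4 mothers and UAS-lark fathers. Control flies, also of both sexes, had elav-gal4 mothers and w1118 fathers, so that every fly carried the driver. Whether the genetic backgrounds of the fathers matched apart from the transgene was not tested. Cultures were kept at 25 °C in 12 h of light and 12 h of darkness, and flies were frozen at ZT6, or 6 h into the light phase. Which UAS-lark line was used is not given in the sources used here, and RNA came from the whole head, so that glia, eye, fat body and muscle contribute to it along with neurons. According to the series, each genotype gave 1 preparation of RNA, and labeling and hybridization were repeated 3 times on it. On that account, any p-value below measures the spread of those steps and leaves out that between flies. LARK overexpression array 1 differed widely from arrays 2 and 3 in summed flight muscle and gut signals, as given below. Whether all 3 came from 1 RNA was not tested. In RNA of a whole head, fewer cells of a type and less RNA per cell cannot be told apart.

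Signals are linear intensities as deposited. The 2 arrays of a number share a hybridization day and a trimmed mean, which differs between the 3 days, so levels are read within a day. On LARK overexpression arrays, 8132, 6312 and 6828 probe sets were above a signal of 40, against 8555, 6708 and 7436 on control arrays. Differences are given on the log2 scale as LARK overexpression minus control. Where they are called centered, each array was first set to its own median probe set, which moves every difference up by 0.20. The single probe set for lark gave 265, 143.3 and 165.5 on LARK overexpression arrays 1, 2 and 3, against 223.5, 156.4 and 192.3 on control arrays 1, 2 and 3. The difference was -0.03 (standard error, SE, 0.45, n = 3 per genotype, adjusted p of 0.999 by limma). With centered arrays the difference was 0.17, so this probe set did not check the labels. Whether it matches the RNA made from the transgene is not stated in the sources used here.

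The arrays differed in ways that bear on all values below. Across probe sets, the correlation of LARK overexpression array 1 was 0.877 with array 2 and 0.892 with array 3 of the same genotype, which is less than the 0.912 it had with control array 1. It was 0.946 between LARK overexpression arrays 2 and 3, and 0.921 to 0.931 between control arrays. In sum, flight muscle and gut markers were high on LARK overexpression arrays 2 and 3. Among flight muscle probe sets, those of fln, TpnC4 and Act88F were high there. That of TpnC41C had a difference of -0.30, and those of up had 0.27 and 0.66. The summed signal of 6 flight muscle probe sets was 47.1, 186 and 192 times the array median on LARK overexpression arrays 1, 2 and 3, against no more than 54.3 on control arrays, and that of 5 gut probe sets was 3.35, 55.3 and 49.98, against 1.34 to 1.87. The sums for photoreceptors and fat body overlapped between the genotypes. That of 6 glial probe sets was 84.3 to 103 on LARK overexpression arrays and 50.9 to 71.9 on control arrays. Of these 6, only that of e was called by limma, as higher. It gave 433.3, 1117.5 and 1257.8 on LARK overexpression arrays, against 232.1, 115.6 and 114.9 on control arrays. Differences of the others were 0.20 for Gs2, 0.08 for nrv2, -0.10 for repo, -0.49 for Gat and -0.55 for moody. With centered arrays, 2 of the 6 lay higher on all 3 days and 1 lower, beside shares of 32.7% and 16.7% over all probe sets in the fit. The sum over 14 neuronal probe sets was 28.3 to 30.3 on LARK overexpression arrays and 44.6 to 50.2 on control arrays. Of the 12 of these above 40 on at least 1 array, those for Gad1, VGlut and nSyb fell by limma and none rose. That of VGlut was under 40 on all LARK overexpression arrays and entered the fit only through the control arrays, where it is high. With a floor at 40 its difference went from -2.50 to -1.60. With centered arrays, 5 of the 12 lay lower on all 3 days (16.7% over all probe sets in the fit). Higher on all 3 days lay 4 (32.7% over all probe sets), these being both of ChAT, that of para and 1 of futsch. The ratio of 3′ to 5′ signal for the control transcript eIF-4a, a measure of how complete the labeled RNA is, was 6.27 ± 0.24 on LARK overexpression arrays and 2.88 ± 0.12 on control arrays (SD, n = 3 each). For actin this ratio was 5.84 ± 0.35 on LARK overexpression arrays and 2.42 ± 0.86 on control arrays. For GAPDH it was 4.30 ± 0.95 and 3.27 ± 0.67, and the genotypes overlapped. The part of these differences in the values of the ecdysone genes was not tested.

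**Figure D1:**
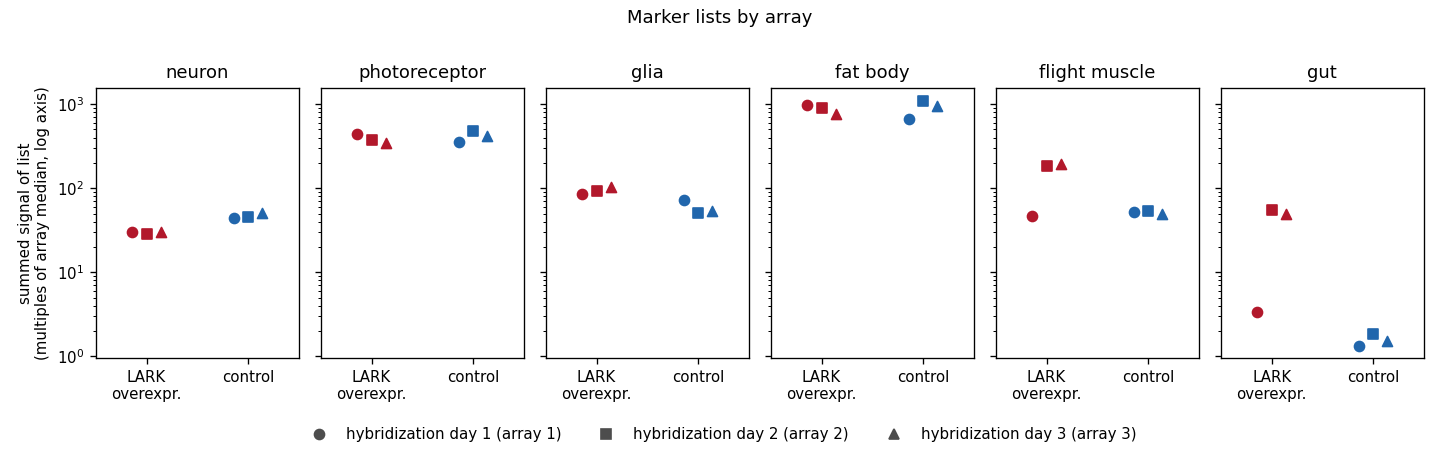
Summed signal of the probe sets of 6 marker lists on each array, in multiples of the array's median signal (log axis), for LARK overexpression (red) and control (blue), with symbols for the hybridization day. The gut and flight muscle sums were highest on LARK overexpression arrays 2 and 3. The neuronal sum was lower, and the glial sum higher, on all 3 LARK overexpression arrays than on control arrays. Among the glial probe sets, that of e alone was called by limma, as higher. Those of repo, Gat and moody had negative differences, and those of Gs2 and nrv2 had positive ones.

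Of the 10 probe sets, 8 exceeded 40 on at least 1 array, the condition for entering the limma fit, and 5 did so on all 6 arrays. The fit called 32 of 9432 probe sets higher (0.339%) and 114 lower (1.21%) with LARK overexpression at an adjusted p under 0.05. It called 0 of the 8 probe sets of the ecdysone genes, 3 of which had an unadjusted p under 0.05 (1020 over all 9432). With centered arrays, 4 of the 8 lay higher on all 3 days and 3 lower on all 3 days, whereas 32.7% of all probe sets in the fit lay higher and 16.7% lower. The median difference of the 8 was -0.01 (0.20 centered), beside -0.07 (0.13 centered) over all 9432. Since the same comparison guided the choice of these genes, nothing is read from these counts.

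**Figure D2:**
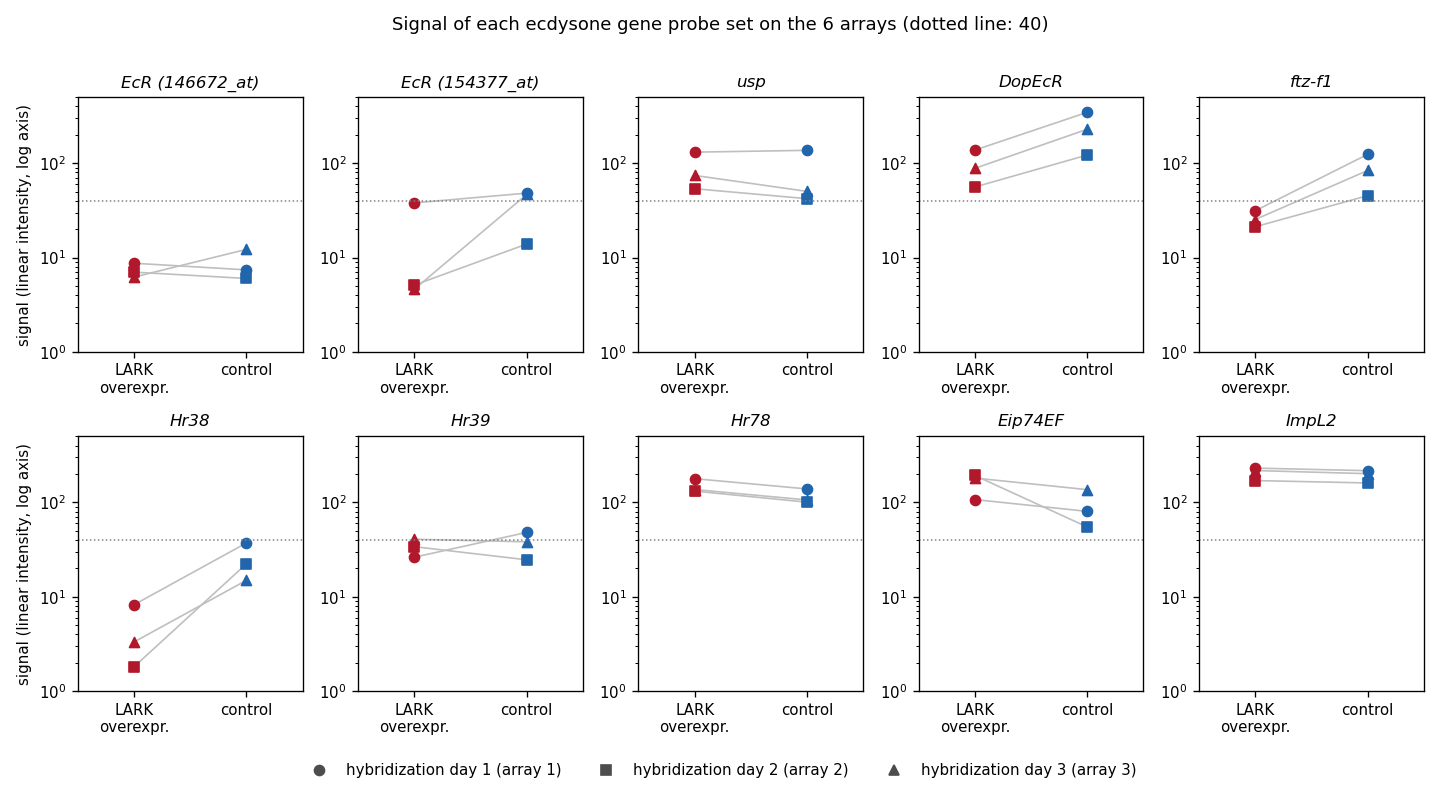
Signal (linear intensity on a log axis) of each probe set of the ecdysone genes on the 3 LARK overexpression arrays (red, left) and the 3 control arrays (blue, right), with lines that join arrays of the same hybridization day and a dotted line at 40. DopEcR, ftz-f1 and Hr38 lay lower on the LARK overexpression array on every day, ftz-f1 lay below 40 on all LARK overexpression arrays, and Hr38 lay below 40 on all 6 arrays.

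The first group is that of the receptors. EcR, the nuclear receptor that binds the hormone, has 2 probe sets on the array. The first, 146672_at, gave 8.7, 7.0 and 6.2 on LARK overexpression arrays, against 7.4, 6.0 and 12.2 on control arrays. It stayed far below 40 on all 6 arrays and was not tested, the groups overlapped, and its difference of -0.17 (SE 0.47) had mixed signs over the days. The second, 154377_at, gave 38, 5.1 and 4.6 on LARK overexpression arrays, against 48.2, 13.9 and 46.7 on control arrays. Here the LARK overexpression array was the lower one on each day, but the 2 genotypes overlapped. The difference was -1.71 (SE 0.71), made up of -0.34, -1.45 and -3.34 on days 1, 2 and 3. This probe set passed 40 only through 2 control arrays, and with values under 40 set to 40 the difference shrank to -0.16. Both EcR probe sets thus lay at or near the lower end of what these arrays measure.

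The partner of EcR, usp, the fly member of the retinoid X receptor family, was above 40 on all 6 arrays, though on control array 2 by little. Its signal was 131.2, 53.7 and 74.3 on LARK overexpression arrays, against 137.1, 42.1 and 50.3 on control arrays. The groups overlapped, and the difference was 0.28 (SE 0.53), with -0.06, 0.35 and 0.56 on days 1, 2 and 3. Centered, usp was higher with LARK overexpression on all 3 days by 0.15, 0.51 and 0.80. Under 2 of 17 other settings of scaling, offset, floor and left-out arrays the sign turned, with a lowest value of -0.07 without LARK overexpression array 1. In that setting the 2 genotypes no longer share their days, and the median over all probe sets in the fit was -0.34. With centered arrays usp stayed at 0.33 or above under every such setting.

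DopEcR, a membrane receptor that responds to both dopamine and ecdysteroids and acts faster than the nuclear receptors, showed a similar difference on all 3 days. Its signal was 137.9, 56.0 and 88.3 on LARK overexpression arrays (94.1 ± 41.3, SD, n = 3), against 347.1, 122.3 and 229.7 on control arrays (233 ± 112, SD, n = 3). Each LARK overexpression array was lower than the control array of its day, and the genotypes did not overlap once arrays were centered, as for 10.5% of all probe sets in this direction. The difference was -1.28 (SE 0.51), a signal 2.43-fold higher in control heads. The 3 days gave -1.33, -1.13 and -1.38, with an SD of 0.13. Centered, the difference was -1.08, and under all 17 other settings that can move it, it stayed below 0, between -1.68 and -0.91. Without the arrays of day 1 it was -1.25.

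Most like DopEcR over the 6 centered arrays, among 4751 probe sets above 40 on every array, were Gprk2, which encodes a G protein-coupled receptor kinase, at a Pearson correlation of 0.994, the kinase gene Tao at 0.993, and CG43897 at 0.984. All 3 were lower with LARK overexpression, by log2 differences of -1.12, -1.06 and -1.005. In all, 78 probe sets correlated above 0.9 with DopEcR. With 6 arrays, from 2 RNA samples according to the series, this likeness describes the arrays and carries no test.

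**Figure D3:**
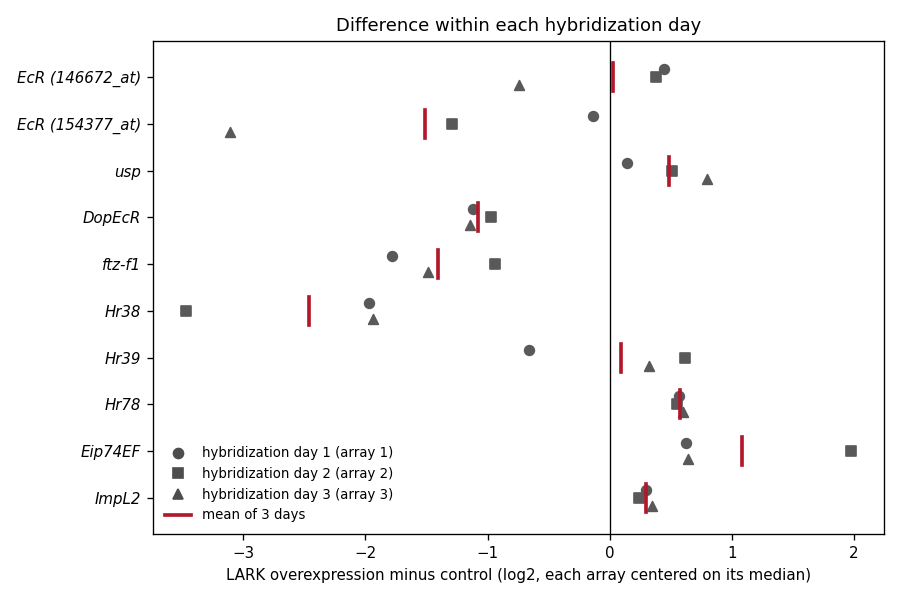
Difference between the LARK overexpression and the control array of each hybridization day (log2, each array centered on its median) for each probe set of the ecdysone genes, with the mean of the 3 days as a red line. The 3 days lay close together for DopEcR, Hr78 and ImpL2 and far apart for Eip74EF and the second EcR probe set.

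The second group holds the transcription factors that the hormone induces or that act beside its receptor. Eip74EF encodes an ETS-domain factor, is a classic early gene that the hormone receptor switches on directly, and is among the LARK-associated RNAs of the study. There it came from only 1 of 2 immunoprecipitation experiments. By quantitative PCR of adult heads at ZT6, the study found no significant change of Eip74EF RNA with LARK overexpression. On these arrays, the signal of Eip74EF was 107.1, 192.8 and 181.1 with LARK overexpression, against 80.3, 54.8 and 136.5 on control arrays. The LARK overexpression array was the higher one on each day, yet the groups overlapped, since LARK overexpression array 1 lay below control array 3, also when centered. The difference was 0.88 (SE 0.49), made up of 0.42, 1.81 and 0.41 on days 1, 2 and 3. Day 2 thus stood apart, and without the arrays of day 1 the difference was 1.11. The sign was positive under all 17 of those settings, from 0.57 without control array 2 to 1.56 with centered arrays and no LARK overexpression array 1.

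Over the 6 centered arrays, the probe sets most like Eip74EF were those of tsu, a component of the exon junction complex, at a Pearson correlation of 0.987, OXA1L at 0.982 and Vps37B at 0.981, among 4752 candidates of which 70 were above 0.9. Their own differences were 0.08, 0.12 and 0.07, all smaller than that of Eip74EF. As above, these correlations come from 6 arrays and were not tested.

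The gene ftz-f1 encodes a nuclear receptor that appears after an ecdysone pulse has passed and prepares tissues for the next one. Its signal was 31.3, 21.2 and 25.3 on LARK overexpression arrays (25.9 ± 5.08, SD, n = 3), against 124.3, 45.3 and 83.8 on control arrays (84.5 ± 39.5, SD, n = 3). All LARK overexpression arrays lay below all control arrays, both as deposited and centered, as held for 10.5% of all probe sets with centered arrays. The difference was -1.60 (SE 0.48), 3.04-fold higher in control heads, with -1.99, -1.10 and -1.73 on days 1, 2 and 3. All 3 LARK overexpression values were under 40, so the probe set entered the fit only through the control arrays. With values under 40 set to 40 the difference was -0.96, and it was negative under all 17 settings.

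Hr38, the fly member of the NR4A family of nuclear receptors, can pair with usp and is induced in active neurons. It gave 8.2, 1.8 and 3.3 on LARK overexpression arrays (4.43 ± 3.35, SD, n = 3), against 37.1, 22.3 and 14.9 on control arrays (24.8 ± 11.3, SD, n = 3). The difference of -2.66 (SE 0.62) was the most negative of the 10 probe sets, was below -2 on each day and left no overlap between genotypes. However, none of the 6 values passed 40, so the probe set was not tested, and with a floor at 40 no difference was left. Of the 4534 probe sets at or below 40 on every array, 6.13% likewise had centered LARK overexpression arrays that all lay below the control arrays.

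Hr39 and Hr78 are nuclear receptors that bind sites shared with ftz-f1 and with the EcR and usp pair. Hr39 gave 26.2, 33.9 and 40.6 on LARK overexpression arrays, against 48.0, 24.6 and 38.2 on control arrays. The difference was -0.11 (SE 0.46), the days disagreed in sign (-0.87, 0.46 and 0.09), and 9 of 17 other settings gave the other sign. Hr78 gave 178.4, 131.7 and 136.8 on LARK overexpression arrays, against 138.9, 100.5 and 106.1 on control arrays. The LARK overexpression array was higher on each day by nearly the same amount, 0.36, 0.39 and 0.37, with a difference of 0.37 (SE 0.44). Centered, it was 0.57 and the genotypes did not overlap, which held for 18.1% of all probe sets in this direction. It stayed above 0 under all 17 other settings, between 0.24 and 0.66.

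ImpL2, an ecdysone-inducible secreted protein that binds insulin-like peptides and dampens insulin signaling, is the effector among these genes. Its signal was 230.9, 170.3 and 217.6 on LARK overexpression arrays (206 ± 31.9, SD, n = 3), against 216.9, 160.7 and 201.6 on control arrays (193 ± 29.1, SD, n = 3). The groups overlapped almost fully. The difference was 0.09 (SE 0.44), with 0.09, 0.08 and 0.11 on the 3 days and 0.30 after centering, and it turned to -0.03 without control array 2. In that setting the 2 genotypes no longer share their days, and the median over all probe sets in the fit was -0.25. With centered arrays and no control array 2, ImpL2 gave 0.35.

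Around these genes, 6 lists of the same pathway were examined in the same fit. They held 120 symbols, some of which are other names or spellings of the same gene. On the array were 85 genes of the lists, of which 57, with 65 probe sets, passed the filter. By limma, 1 of the 65 probe sets rose and 3 fell, beside shares of 0.339% and 1.21% over all 9432 probe sets. An unadjusted p under 0.05 was held by 11 of the 65 (1020 over all 9432). The median difference was -0.25, or -0.04 with centered arrays. Over the 3 days, with centered arrays, 14 of the 65 lay higher on every day and 16 lower, beside shares of 32.7% and 16.7% over all probe sets.

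**Figure D4:**
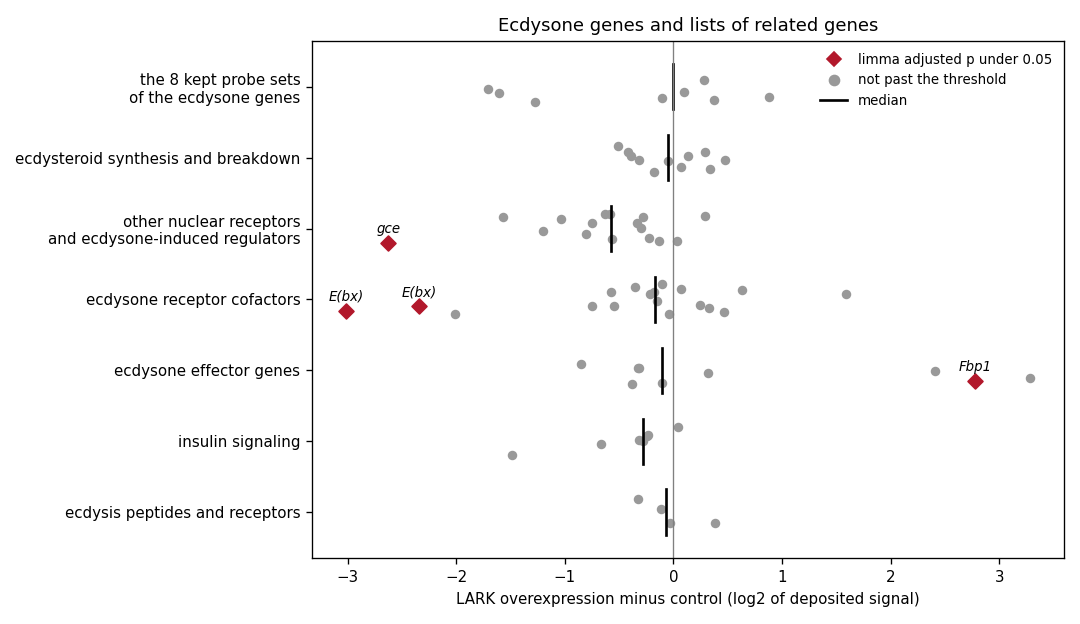
Difference between LARK overexpression and control (log2 of deposited signal) for each probe set in the fit, for the ecdysone genes and 6 lists of related genes, with the median of each as a black line. Red diamonds are the 4 probe sets with a limma adjusted p under 0.05, of which Fbp1 was higher with LARK overexpression and gce and E(bx), the last with 2 probe sets, were lower.

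Genes that make, carry or break down ecdysteroids did not pass the limma test in any case (0 of 11 probe sets, and 0 at an unadjusted p under 0.05). The pair with the highest signal encode proteins of sterol transport. Npc2a gave 908.6, 532.8 and 650 on LARK overexpression arrays, against 704.4, 457.9 and 532 on control arrays, a difference of 0.29 (SE 0.45). Npc1a gave 315.2, 188.9 and 233.1, against 263.8, 132.9 and 147.5, a difference of 0.47 (SE 0.47). With centered arrays, 4 of the 11, these 2 among them, lay higher on all 3 days (32.7% over all probe sets) and 1 lay lower, that of sad. The list's median was -0.05, or 0.15 centered.

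Among 16 probe sets of other nuclear receptors and ecdysone-induced regulators, 1 fell and 0 rose, and the list had the lowest median of the 6 (-0.57, or -0.37 centered). An unadjusted p under 0.05 was held by 3 of the 16. The one that fell was a probe set of gce, which encodes a receptor for juvenile hormone, the hormone that opposes ecdysone in development. It gave 16.6, 4.6 and 15.8 on LARK overexpression arrays, against 83.6, 41.8 and 81.2 on control arrays, with a difference of -2.63 (SE 0.55, adjusted p = 0.0248 from limma). All LARK overexpression values were under 40, so this probe set entered the fit only through the control arrays, where it is high, and with a floor at 40 the difference was -0.72. The other gce probe set in the fit had a difference of -0.56 (adjusted p = 0.875 from limma). The call was lost with the hybridization day as a block (adjusted p = 0.0783 from limma), with centered arrays (adjusted p = 0.0602) and without control array 1 (adjusted p = 0.111). With centered arrays, 7 of the 16 probe sets, both of gce among them, lay lower on all 3 days (16.7% over all probe sets), and 1, that of Eip93F, lay higher on all 3 (32.7% over all probe sets).

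The cofactor list holds 18 probe sets of proteins that act with the ecdysone receptor on chromatin. Of these, 4 had an unadjusted p under 0.05, and by adjusted p 2 fell and 0 rose. Both belong to E(bx), which encodes the largest subunit of the nucleosome remodeling factor NURF. The first, 147915_at, gave 14.5, 41.2 and 52.8 on LARK overexpression arrays, against 155.7, 141.1 and 186.4 on control arrays (-2.34, SE 0.52, adjusted p = 0.0324 from limma). The second, 147916_at, gave 4.5, 13.2 and 2.1, against 43.9, 33.7 and 44.4 (-3.01, SE 0.58, adjusted p = 0.0153 from limma), but entered the fit only through 2 control arrays, where it is high, and kept only -0.09 with a floor at 40. In both, every LARK overexpression array lay below every control array, as held for 10.5% of all probe sets with centered arrays. The remaining E(bx) probe set, 147914_at, gave 84.3, 43.2 and 42.6, against 112.3, 74.7 and 87.8, and its difference of -0.75 did not pass the test (adjusted p = 0.704 from limma). With the day as a block, the adjusted p from limma was 0.103 for 147915_at and 0.122 for 147916_at, with centered arrays 0.145 and 0.109, and without control array 1 0.106 and 0.0852, so both calls were lost under these settings. The differences themselves were -2.34 and -3.01 with the block and -2.14 and -2.81 with centered arrays. With an intensity trend and robust prior added to the block, 147915_at passed (adjusted p = 0.0123 from limma). With centered arrays the only call in the pathway lists was a rise of brm, an ATPase of another chromatin remodeling complex, whose signal was 46, 23.5 and 18.2 on LARK overexpression arrays, against 11, 7.2 and 9.1 on control arrays (1.79 centered, adjusted p = 0.0366 from limma, and 1.59 with an adjusted p of 0.123 as deposited). This probe set exceeded 40 on LARK overexpression array 1 alone and entered the fit only through it. The other brm probe set had a difference of -0.04. The list's median was -0.17, or 0.04 centered.

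Of 9 probe sets of ecdysone effector genes in the fit, 3 had an unadjusted p under 0.05, and by adjusted p 1 rose and 0 fell. It was that of Fbp1, which encodes a fat body receptor for storage proteins and is induced by ecdysone in larvae. Fbp1 gave 81, 545.5 and 653.1 on LARK overexpression arrays, against 34.8, 62.1 and 41.3 on control arrays (2.78, SE 0.65, adjusted p = 0.0431 from limma). The call was lost with the day as a block (adjusted p = 0.122 from limma), with centered arrays (adjusted p = 0.166), without LARK overexpression array 3 (adjusted p = 0.0634) and without control array 1 (adjusted p = 0.171). Its rise was carried by arrays 2 and 3, with day differences of 1.22 on day 1, 3.13 on day 2 and 3.98 on day 3. Fbp2, another fat body protein, gave 10.6, 625.6 and 686.5, against 12.1, 23.2 and 17.7, and the caspase gene Dronc gave 42.9, 267.3 and 337, against 28.8, 24.1 and 37.3. Neither passed the test (adjusted p = 0.176 and 0.0744 from limma), although both did with 16 added to every signal, with a filter above 100 and with days 2 and 3 alone, and both were singled out after their values were seen. The LARK overexpression arrays on which these 3 genes were high are those with the high flight muscle and gut sums. The fat body marker Obp99b, also named after its values were seen, was high on the same arrays, at 117.2, 773.3 and 709.4 on LARK overexpression arrays, against 63.8, 57.3 and 61.5 on control arrays (adjusted p = 0.0368 from limma). The yolk protein genes Yp1, Yp2 and Yp3, also in the fat body list, had differences of -0.27, -0.28 and -0.21 and were not called. The part of these tissues in the values of Fbp1, Fbp2 and Dronc was not tested.

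In insulin signaling, the pathway on which ImpL2 acts, 0 of 7 probe sets passed the limma test (1 at an unadjusted p under 0.05), and the median difference was -0.28 (-0.08 centered). Ilp2, an insulin-like peptide, gave 637.8, 218.4 and 248.2 on LARK overexpression arrays, against 606.7, 266.1 and 357.6 on control arrays (-0.25, SE 0.52). The insulin receptor substrate gene chico gave 387, 123.1 and 194.1, against 377, 174.6 and 270 (-0.31, SE 0.51). The genotypes overlapped for Ilp2 and chico. The probe set with an unadjusted p under 0.05 was that of foxo, named after its values were seen. It gave 15.7, 22.2 and 28.3 on LARK overexpression arrays, against 65.6, 52.8 and 63.2 on control arrays, without overlap. Its difference of -1.49 (SE 0.45) did not pass the test (adjusted p = 0.121 from limma). This probe set entered the fit only through the control arrays, where it is high, and the floor setting left -0.59. Likewise, 0 of 4 probe sets of ecdysis peptides and their receptors passed the limma test, and 0 had an unadjusted p under 0.05. Of these, rk, the receptor of the hormone that hardens the new cuticle, had a difference of -0.33 (SE 0.46), and Eh, the eclosion hormone, one of -0.11 (SE 0.48).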

How the data were processed

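Labeled RNA was hybridized to Affymetrix DrosGenome1 arrays. The deposited table gives a linear intensity for each of 14010 probe sets, 44 of them array controls. These intensity values were made by the authors with MAS5, by the processing notes, which give no version, whereas the study's methods describe GCRMA, so the 2 normalizations differ. Of the 13966 other probe sets, the annotation gives 12443 a single symbol, 327 several and 1196 none. Experiment files were read for the hybridization day only.

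The log2 signals of the 9432 probe sets that exceeded 40 on 1 array or more entered a linear model of genotype (limma 3.58.1, R 4.3.3). Tests were 2-sided, and p-values were adjusted over all 9432 by Benjamini-Hochberg, with a threshold of 0.05. The fit was also run on simulated data, and the outcome is not reported here. Replicate numbers mark a shared hybridization day, so they pair the arrays, although deviations of arrays of the same number correlated at only 0.0936, 0.172 and 0.0256. Precision is limited by having 6 arrays.

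The members and lists were chosen with earlier results of these data known. Symbols absent from the annotation were looked up among RefSeq synonyms. Named are all probe sets of the ecdysone genes, from each list its calls, or where it has none the 2 probe sets of highest mean signal, and the 3 probe sets most like DopEcR and Eip74EF. Eip93F, sad, brm, Fbp2, Dronc, foxo and the marker genes were named outside this rule, after their values were seen. Alternatives were centering, quantile normalization, an offset of 16, a floor at 40, no filter or a filter above 100, a replicate block without and with an intensity trend and robust prior, replicates 2 and 3 alone, and leaving out each array, as deposited and centered.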

Additional observations from a re-analysis of the deposited data

How the results depend on the processing

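Of the ecdysone genes, DopEcR, ftz-f1, Hr78, Eip74EF and the second EcR probe set kept their sign under all 17 alternatives other than filters and blocks, which cannot move a log2 difference. Hr38 kept it under all but the floor at 40, which left 0. That floor cannot move DopEcR, Hr78, Eip74EF, usp or ImpL2 either, which exceeded 40 on every array. The sign turned for the first EcR probe set in 6, Hr39 in 9, usp in 2 and ImpL2 in 1 of the 17. For usp and ImpL2 it turned only where 1 array was left out of the deposited signals. With centered arrays their lowest values were 0.33 and 0.17. The count of their probe sets past the limma threshold was 0 as reported and became 1 with a filter above 100 (ftz-f1) and 2 with the replicate block, trend and robust prior (DopEcR and ftz-f1), all lower. The ftz-f1 probe set passes either filter only through control arrays, where it is high. Leaving out 1 array gave 0 to 1, and 0 to 2 with centered arrays. The second EcR probe set passed without LARK overexpression array 1, and ftz-f1 without control array 2.

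Over all probe sets, 146 were called (78.1% of them lower). This became 83 with centered arrays (90.4% lower), 242 with 16 added (53.3% lower), 12 without a filter (91.7% lower), 0 with a floor at 40 (811 at an unadjusted p under 0.05), 0 with the replicate block (1903 at an unadjusted p under 0.05) and 571 with the block, trend and robust prior. Quantile normalization gave 118 (91.5% lower). Leaving out 1 array gave 34, without control array 1, to 465, without LARK overexpression array 1, and 0 to 723 with centered arrays (3 without LARK overexpression array 3). Without the arrays of day 1 the count was 164, of which 26.2% were lower.

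In the pathway lists 4 probe sets were called. This became 1 with centered arrays and 1 with quantile normalization, brm in both, 0 with a floor at 40, 0 without a filter, 0 with the replicate block and 2 with the block, trend and robust prior (gce and E(bx)). It became 6 with 16 added and 5 with a filter above 100, Fbp2 and Dronc among both, and 3 with days 2 and 3 alone (Fbp1, Fbp2 and Dronc). The Fbp2 and Dronc probe sets pass the filters at 40 and 100 only through LARK overexpression arrays, where they are high. That of Fbp1 passes the filter above 100 only in this way. Leaving out 1 array gave 0, without control array 1, to 9, without LARK overexpression array 1, and 0 to 7 with centered arrays. The cause of these changes was not tested. Signals under 40 limit EcR, Hr38 and ftz-f1 most, since a floor at 40 removes or shrinks their differences.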
